A study of Mus musculus with 7 samples.

Results

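Sgk1, Tsc22d3, Fkbp5, Per1, Klf9 and Txnip, 6 of the 18907 genes in the count tables, are genes that glucocorticoid hormones are known to induce. They were followed through single cells sorted from mouse gastric glands, in the 2235 of 2688 wells that held at least 1000 UMIs (unique molecular identifiers, 1 per captured transcript). All cells came from wild-type C57BL/6 mice, the labels record no treatment, and the groups differ in the labelled region: 4 plates are labelled corpus, the acid-secreting body of the stomach (1252 cells), and 3 pylorus, its outlet (983 cells). Glands were squeezed out and digested, and living cells were sorted 1 per well into plates of 384 wells for CEL-seq2, which counts the 3′ ends of transcripts. The labels do not say how many animals gave the plates, and nothing in them ties same-numbered plates together. Sgk1 was chosen by the comparison of pit-like cells between the regions in an earlier look at these data, and the other genes were set beside it for their known response to the same hormones. All values from that comparison are therefore descriptions, with no test.

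Glucocorticoids enter the cell and bind the receptor encoded by Nr3c1, which Hsp90 chaperones hold ready, and the receptor then moves to the nucleus and binds DNA at inverted pairs of a short motif. Sgk1 encodes a kinase that raises sodium and potassium transport across epithelia, Tsc22d3 an anti-inflammatory leucine zipper protein, and Klf9 a transcription factor. Fkbp5 encodes a co-chaperone that lowers the receptor's affinity for hormone, Per1 a repressor of the circadian clock, and Txnip an inhibitor of thioredoxin and of glucose uptake that glucose itself also induces.

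The RefSeq promoter table (GRCm38.p6, 250 bases before to 50 bases after a transcript start) holds all 6 genes, with 6 starts for Sgk1, 3 for Tsc22d3, 2 for Per1 and 1 each for the rest. Parts of 4 promoters are shown because they hold a glucocorticoid receptor motif or a clock motif, 5′ to 3′ on the gene's strand with the motifs in capitals. They are chr10:21993640-21993719 (+ strand, start at 21993890) for Sgk1, chrX:140600680-140600729 (- strand, start at 140600522) for Tsc22d3, chr17:28486291-28486340 (- strand, start at 28486149) for Fkbp5 and chr11:69098761-69098810 (+ strand, start at 69098949) for Per1.
Sgk1: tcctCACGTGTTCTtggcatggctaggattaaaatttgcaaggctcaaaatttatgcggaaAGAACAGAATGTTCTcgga
Tsc22d3: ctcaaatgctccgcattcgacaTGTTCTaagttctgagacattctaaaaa
Fkbp5: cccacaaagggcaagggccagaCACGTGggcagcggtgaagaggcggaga
Per1: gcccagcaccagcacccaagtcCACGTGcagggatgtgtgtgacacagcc
The Sgk1 stretch holds the full receptor element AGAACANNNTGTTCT, which was found, over both strands, in 3 of 32851 promoters of 300 bases (0.00913%). A single arm of it, AGAACA, lies in 19% of promoters, and was found on the opposite strand (TGTTCT) near 1 start of Tsc22d3 and near another start of Sgk1, and on the gene's own strand near a further start of Sgk1. The E-box CACGTG, which clock proteins bind, lies in 7.15% of promoters and was found in Sgk1, where it overlaps a further single arm, in Fkbp5 and in Per1. Of the other motifs searched, TGACGTCA (1.79% of promoters) was found in no member and TATAAA (13.6%) at 2 other starts of Sgk1. Klf9 and Txnip held none of these letters in the window, which says nothing of the rest of the gene. CEL-seq2 reads transcript ends, so the start in use is not known, and a match is not a shown site of binding.

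The plates do not all bear out their labels. Gast, the hormone gene of antral G cells, had 3340 UMIs in corpus 1 and 0 in each of the other 6 plates. Nkx6-3, a transcription factor gene of antral glands, had 70.9 CPM (UMIs per 1000000 UMIs) in corpus 1. It had 0.51, 6.11 and 9.39 CPM in corpus 2 to 4, and 0.121 to 0.382 CPM in the pylorus plates. Pdx1, another such gene, had 6, 0, 3 and 1 UMIs in corpus 1 to 4 and 0 in each pylorus plate. No pylorus plate thus stood above a corpus plate in any of these genes. Corpus and pylorus below therefore mean the plates so labelled. Corpus 1 and pylorus 1 were shallow (medians of 6898 and 8240 UMIs per cell, 19648 to 25544 in the other 5 plates) and rich in spike-ins (4.27 and 6.55%, 0.256 to 0.426% in the rest). Corpus 2 had 424 UMIs of the Y-linked Ddx3y and no Xist, while the other plates had Xist and at most 1 UMI of Ddx3y. No plates of a label were alike within counting noise (chi-square per gene 7.51 to 133.5).

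Sgk1 was concentrated in surface mucous pit-like cells and acid-secreting parietal-like cells. In pit-like cells it stood at 31.8, 126.7, 57.8 and 39.9 CPM in corpus 1 to 4 and at 193.8, 396 and 333.8 CPM in pylorus 1 to 3. In parietal-like cells it stood at 217.96 and 220.1 CPM in corpus 3 and 4 and at 197.6 CPM in pylorus 3, the plates with at least 10 such cells. In pylorus 2 it took 75 of 480770 UMIs, the lowest share of the 4 plates. Among classes with at least 10 cells, pit-like cells thus had the highest level in the 3 pylorus plates and in corpus 1 and 2, and parietal-like cells had it in corpus 3 and 4. Corpus 1, corpus 2 and pylorus 1 had only 4, 8 and 3 parietal-like cells, so their level is not compared there.

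**Figure D1:**
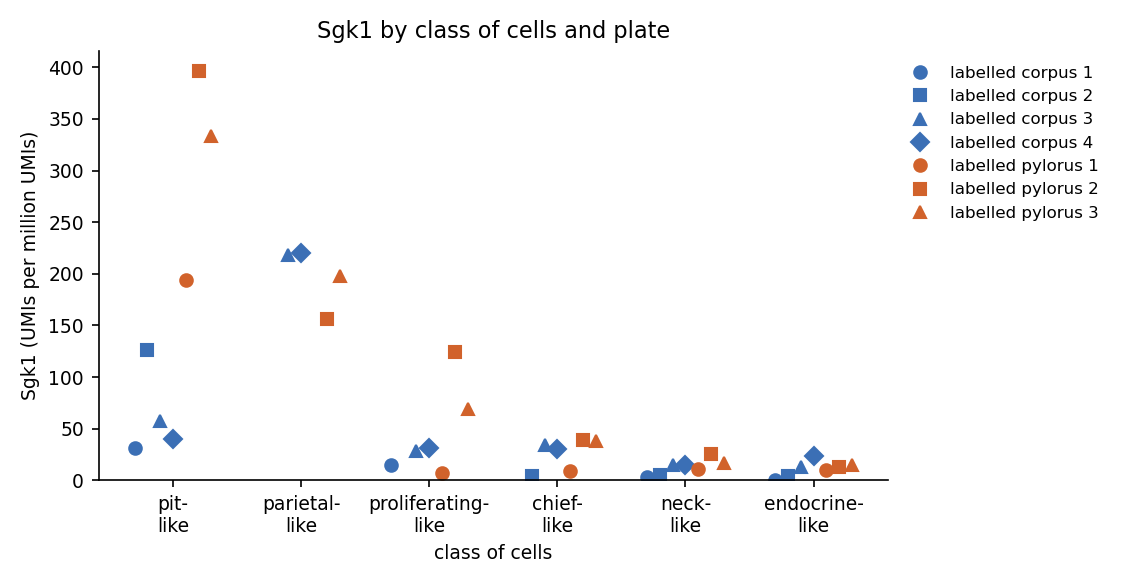
Sgk1 level (UMIs per 1000000 UMIs, y axis) in pit-, parietal-, proliferating-, chief-, neck- and endocrine-like cells (x axis), 1 point per plate with at least 10 cells of the class. Other cells are not drawn. In pit-like cells the 3 pylorus plates (193.8 to 396 CPM) lie above the 4 corpus plates (31.8 to 126.7 CPM), and parietal-like cells of either label reach at most 220.1 CPM.

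The other classes mostly held less Sgk1. Mucous neck-like cells had 3.33 to 15.1 CPM in corpus and 10.6 to 25.8 CPM in pylorus plates, enzyme-secreting chief-like cells 4.18 to 34.4 and 9.48 to 38.7 CPM, and hormone-secreting endocrine-like cells 0 to 23.6 and 9.85 to 14.9 CPM. The 0 is that of corpus 1, where 3 counts would be 52.6 CPM. The 9.85 CPM is that of pylorus 1 and also rests on fewer than 3 counts (101548 UMIs in all). The labels overlapped in these classes, and the classes changed order from plate to plate. Clusters 3, 5 and 13 had no class name. They held 76 and 76 cells in corpus 3 and 4 and 14, 86 and 100 in pylorus 1 to 3, most of them in cluster 13. Cluster 3 was led by the mast cell genes Cpa3, Tpsb2 and Cma1. Cluster 5 was led by Ccl5, Thy1 and Cd8a, genes of T cells, so both look like immune cells. Fits over all cells outside the pit-like class include these clusters. Pooled over them, Sgk1 stood at 18.4 to 18.6 CPM in corpus and 23.5 to 56.7 CPM in pylorus plates. These ranges did not overlap and were not fitted. The 23.5 CPM is that of pylorus 1 and rests on fewer than 3 counts. In cluster 13 alone Sgk1 stood at 19.1 and 18 CPM in corpus 3 and 4 and at 57.3 and 34.8 CPM in pylorus 2 and 3. Proliferating-like cells ranged widest among the pylorus plates, with 6.99, 124.2 and 68.9 CPM in pylorus 1 to 3. They had 14.7, 28.7 and 31.4 CPM in corpus 1, 3 and 4. The 6.99 CPM of pylorus 1 rests on fewer than 3 counts (143147 UMIs in all), so the low end of that range is not firm. The related kinase genes Sgk2 (7.12 to 20.2 CPM) and Sgk3 (5.78 to 11.9 CPM) were low in the pit-like cells of all 7 plates.

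The mean Sgk1 level in pit-like cells was 64 ± 43.1 CPM (SD, n = 4) for corpus, and for pylorus plates it was 307.96 ± 103.7 CPM (SD, n = 3). These sums rest on 10 to 885 UMIs from 23 to 86 cells a plate. The fitted log2 difference, pylorus minus corpus, was 2.41 ± 0.42 (SE), and 2.10 ± 0.37 without corpus 1. With only corpus 3 and 4 and pylorus 2 and 3 it was 2.79 ± 0.15. That choice leaves out corpus 2, which was of like depth (median of 19648 UMIs per cell) and the corpus plate highest in Sgk1.

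Sgk1 was uneven from cell to cell. The highest corpus plate, corpus 2, owed 79.8% of its Sgk1 UMIs to 2 of 23 pit-like cells. The median pit-like cell held 0 or 1 Sgk1 UMI in the corpus plates and in pylorus 1, and 8 and 5 UMIs in pylorus 2 and 3. Sgk1 was detected in 19.4, 39.1, 63.4 and 53% of pit-like cells in corpus 1 to 4 and in 50, 89.1 and 87.1% in pylorus 1 to 3. With each cell thinned to 1000 UMIs the shares were 0, 4.35, 5.63 and 6.06% in corpus and 14, 32.8 and 22.6% in pylorus plates, so that the labels did not overlap at equal depth. The 0 of 31 cells in corpus 1 allows a share of up to 9.68%. In neck-like cells, a class low in Sgk1, the thinned share was 0 to 1.22% in corpus (a 0 allows up to 4.62%) and 1.43, 4.76 and 8% in pylorus 1 to 3.

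The pit-like class was made of 3 clusters that largely follow the plates. Cluster 6 held the pit-like cells of corpus 1, corpus 2 and pylorus 1, with Sgk1 at 32.6, 126.7 and 191.9 CPM. Cluster 11 held those of corpus 3 and 4 (44.6 and 40.95 CPM), and cluster 19 those of pylorus 2 and 3 (396 and 342.8 CPM). Cluster 19 was led by the interferon-induced genes Ifit1 and Isg15 and the cytokine gene Il33, with Sgk1 itself among its 10 leading genes. The 2 cells of corpus 3 that fell into cluster 19 held 25.4% of that plate's Sgk1 UMIs in pit-like cells. With the members left out of the clustering, the log2 difference was 2.52 ± 0.54 (SE). The pit-like class of corpus 1 hinges on the clustering. At resolution 0.6 it grew from 31 to 95 cells while the proliferating-like class of that plate shrank to 55 cells, and the log2 difference was 2.57 ± 0.51 (SE). The pit-like class grew further when the members were left out of the clustering.

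Other quantities differed along with Sgk1 in pit-like cells, and their part in its values was not tested. The 8 pit markers were all detected in every plate and summed to 9.67 to 17% of UMIs in corpus and 17.8 to 18.7% in pylorus plates. Mitochondrially encoded transcripts took 14.2 to 16% and 11.1 to 12.9%. Of 18 genes known to respond to tissue dissociation, 17 were fitted higher in pylorus plates (median log2 difference 0.475, all genes 0.0449), and their summed shares overlapped (0.203 to 0.386% and 0.27 to 0.448%). The 7 markers of parietal cells, the other class rich in Sgk1, summed to 17.1 to 684 CPM in corpus and 12.9 to 208.8 CPM in pylorus plates, with Slc26a7 at 0 in 6 of 7 plates. The 11 immune markers summed to at most 22.4 CPM and the 8 stromal and endothelial markers to at most 57.2 CPM.

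The other members differed less between the labels in pit-like cells, and not in a single direction. Of 5 members that passed the filter on low counts, 0 were called at an adjusted p under 0.05 in this comparison (0% of 8924 genes were, in limma, and 2.02% had an unadjusted p under 0.05), and nothing is read from this. On scaled values, Tsc22d3 lay higher in pylorus plates without overlap, as did 2.81% of all genes, and Txnip lower, as did 1.87%. Sgk1 also lay higher without overlap, but this comparison chose it, so it is not counted. Tsc22d3 stood at 19.1, 37, 25.8 and 23.9 CPM in corpus 1 to 4 and at 44.1, 32.2 and 37.3 CPM in pylorus 1 to 3. Before scaling, corpus 2 lay among the pylorus values, and the fitted difference was 0.56 ± 0.25 (SE, log2).

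Klf9 stood at 15.9, 74, 60.04 and 53.1 CPM in corpus 1 to 4 and at 19.3, 49.7 and 55.8 CPM in pylorus 1 to 3. The shallow plates corpus 1 and pylorus 1 were low and the labels overlapped. Fkbp5 was sparse, with 0, 4, 16 and 17 UMIs in corpus 1 to 4 and 6, 26 and 19 UMIs in pylorus 1 to 3, at most 11.6 CPM. Per1 gave 0 to 2 UMIs in each plate, under the floor of 3 counts, and did not pass the filter.

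Txnip, the most abundant member, stood at 349.7, 805, 394 and 336.4 CPM in corpus 1 to 4 and at 259.04, 254.8 and 275.3 CPM in pylorus 1 to 3. Every pylorus plate lay below every corpus plate, with corpus 2 far above the rest. The fitted log2 difference was -0.69 ± 0.26 (SE).

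**Figure D2:**
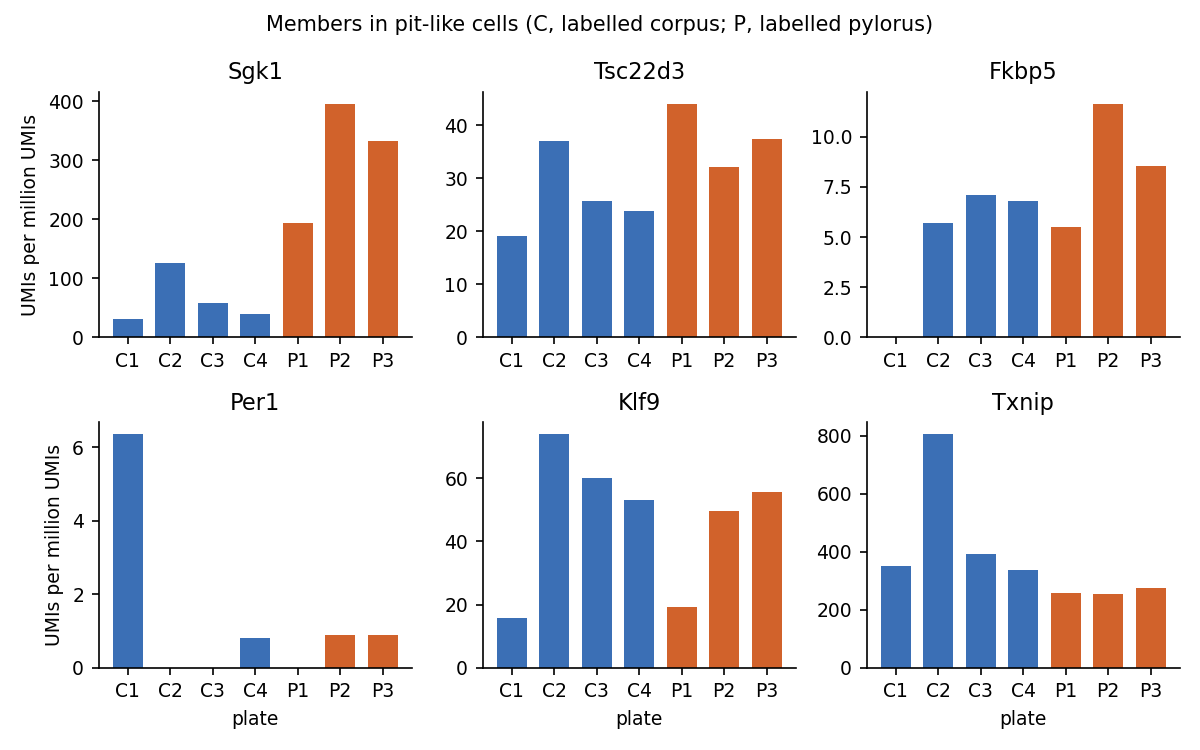
Level of each member (UMIs per 1000000 UMIs, y axis, starting at 0 with its own scale per gene) in the pit-like cells of each plate (x axis; C, corpus; P, pylorus); each bar is 1 plate and carries no error. Sgk1 is higher (193.8 to 396 CPM) and Txnip lower (254.8 to 275.3 CPM) in all 3 pylorus plates, Klf9 is low in both shallow plates, and Per1 rests on 0 to 2 UMIs.

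No correlation of another member with Sgk1 stood out from cell to cell in the pit-like cells of the pylorus plates. The Spearman correlation with Sgk1 was taken within each plate (86, 64 and 62 cells in pylorus 1 to 3, which share library and depth). For Tsc22d3 it was -0.00431, -0.0944 and -0.0959, and for Txnip it was -0.0797, -0.119 and -0.0976. Klf9 (0.0666, -0.162 and 0.255) and Fkbp5 (-0.0405, -0.00743 and 0.155) changed sign between plates. Per1, with 2 UMIs each in pylorus 2 and 3, had -0.126 and 0.0522. The means over plates were -0.0649 for Tsc22d3, -0.0988 for Txnip, 0.0532 for Klf9 and 0.0357 for Fkbp5. Among 6987 genes detected in at least 10% of these cells the 5th and 95th percentiles of that mean were -0.15 and 0.112, a range that holds all of these values. Fkbp5, seen in 6.98% of the pylorus 1 cells, is not among those genes. In counts this sparse weak correlations are no finding, and a shared change could be missed. The median cell held at most 2 UMIs of Klf9 and 1 of Tsc22d3.

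The 6 genes most like Sgk1 across these cells included the pit markers Dpcr1 (mean correlation 0.465) and Gkn1 (0.314), which encode a mucin-like protein and a gastrokine. The others were Sectm1b (0.376), 2210407C18Rik (0.325), Sptssb (0.32), which encodes a subunit of serine palmitoyltransferase, and D15Ertd621e (0.298). Dpcr1 had 0.289, 0.588 and 0.519 in pylorus 1 to 3 and 0.0538, 0.351, 0.31 and 0.216 in corpus 1 to 4, positive in all 7 plates. With cells thinned to 2000 UMIs the means ranged from 0.0607 (2210407C18Rik) to 0.285 (Dpcr1).

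**Figure D3:**
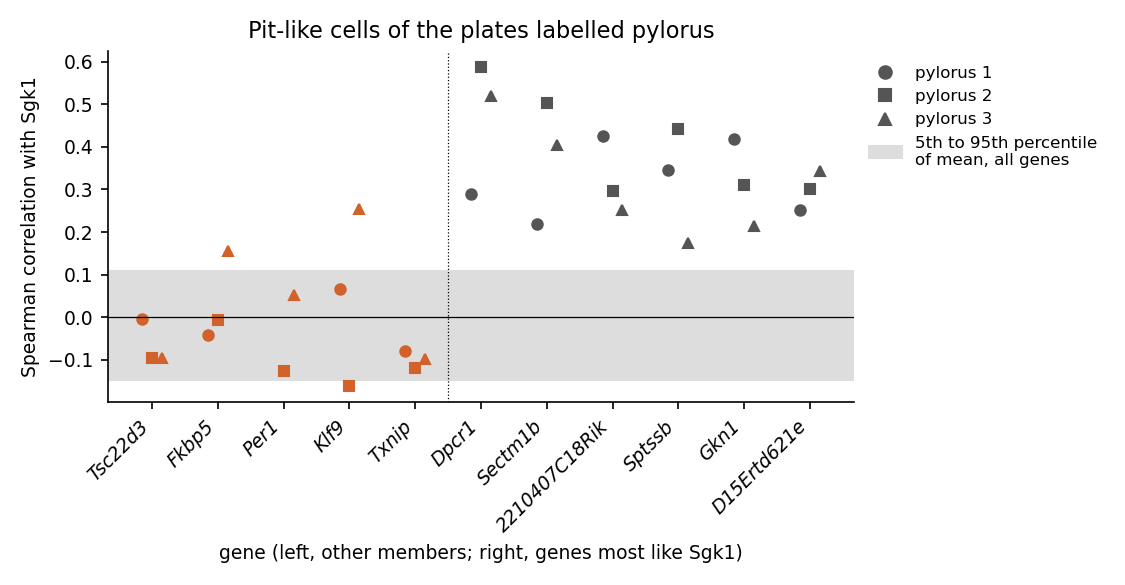
Spearman correlation with Sgk1 over pit-like cells (y axis) of the other 5 members (left) and the 6 genes most like Sgk1 (right), 1 point per pylorus plate; the grey band spans the 5th to 95th percentile (-0.15 to 0.112) of the mean over plates of 6987 genes. The members scatter around 0, and the 6 genes, picked as the highest of all, lie above the band in each plate.

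Across 39 sums of a class in a plate, the genes most like Sgk1 were others. The highest Pearson correlations of log2(CPM + 2) were those of Kcnj16 (0.854), a potassium channel gene, Tinagl1 (0.807), Pde1c (0.801), a cyclic nucleotide phosphodiesterase gene, Aldh1a1 (0.787), a retinaldehyde dehydrogenase gene, Mal2 (0.784) and Ermp1 (0.775). All 6 had their highest mean of any class in parietal-like cells, from 81.4 CPM (Tinagl1) to 375.3 CPM (Mal2). The other members had 0.213 (Txnip), 0.172 (Fkbp5), 0.0748 (Tsc22d3), -0.0472 (Klf9) and -0.424 (Per1). Sums of 1 plate share its depth, so these values describe the samples.

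Outside pit-like cells the members could be tested between the labels, with limma over all genes. In neck-like cells 0 of 4 members tested were called at an adjusted p under 0.05 (0.0369% of 8136 genes were, and 2.9% had an unadjusted p under 0.05). In chief-like cells 0 of 4 were (0% of 7075 genes, 2.43% unadjusted), in proliferating-like cells 0 of 4 (0% of 6548, 2.11% unadjusted) and in endocrine-like cells 0 of 3 (0% of 6258, 1.74% unadjusted), where Sgk1, Tsc22d3 and Per1 did not pass the filter. Over all kept cells outside the pit-like class 0 of 6 were called (0.017% of 11735 genes, 1.3% unadjusted).

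Sgk1 was not called in these cells. In neck-like cells, present in similar numbers in every plate, it differed by 0.82 ± 0.52 (SE, log2; 95% interval -0.31 to 1.95, adjusted p = 0.9995, limma), and by 0.325 to 1.15 over 16 alternatives, none of them negative. Over all cells outside the pit-like class it stood at 13.9, 7.91, 81.9 and 65.2 CPM in corpus 1 to 4 and at 11.1, 60.96 and 54.3 CPM in pylorus 1 to 3. It was low in the 3 plates with 3 to 8 parietal-like cells and high in the other 4. The log2 difference of 0.25 ± 0.90 (SE) was negative when corpus 1 (-0.13), corpus 2 (-0.31), pylorus 2 (-0.16) or pylorus 3 (-0.05) was left out.

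With all plates that had enough cells, members were called in parietal-like cells alone. Txnip, Sgk1 and Klf9, 3 of 5 tested, were lower in pylorus plates at an adjusted p under 0.05 (limma, corpus 3 and 4 with 56 and 42 cells against pylorus 2 and 3 with 13 and 21). Calls were common there, with 7.91% of 7015 genes called, 4.39% as lower, 22.3% at an unadjusted p under 0.05, and 26.7% lower without overlap, as these 3 members were on scaled values. Txnip fell from 389 and 343.6 CPM in corpus to 137.3 and 192.8 CPM in pylorus plates (-1.52 ± 0.16 on the log2 scale, SE, adjusted p = 9.5e-05, limma). With cells thinned to 1000 UMIs it was -2.20 (adjusted p = 0.0618, limma).

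The calls of Sgk1 and Klf9 in parietal-like cells depended on the scaling and were lost without a corpus plate. Scaling to all UMIs in place of TMM moved the median of all genes there from -0.0313 to 0.3 (log2). Sgk1 differed by -0.67 ± 0.16 (SE, adjusted p = 0.0187, limma) with TMM and by -0.32 (adjusted p = 0.234, limma) with all UMIs, that is by -0.64 and -0.62 relative to the respective medians. Its difference was -0.70 without corpus 3 (adjusted p = 0.127, limma) and -0.64 without corpus 4 (0.201), so the size held while the call was lost in the smaller design. At 1000 UMIs a cell, Sgk1 was detected in 14.3 and 14.3% of cells in corpus 3 and 4 and in 15.4 and 28.6% in pylorus 2 and 3, against the order of the levels, so no direction is read.

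Klf9 stood at 108.5 and 83.8 CPM in corpus 3 and 4 and at 74.9 and 68.2 CPM in pylorus 2 and 3 in parietal-like cells (-0.76 ± 0.20, SE, log2, adjusted p = 0.032, limma). Relative to the median of all genes it stood at -0.72 with TMM and -0.71 with all UMIs, where its adjusted p was 0.203 (limma). Its difference was -0.595 without corpus 3 (adjusted p = 0.457, limma) and -0.919 without corpus 4 (0.0839). Tsc22d3 (-0.01 ± 0.24, SE) and Fkbp5 (-0.46 ± 0.37, SE) were not called.

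Txnip was below corpus in the pylorus plates of several other classes without passing the adjusted threshold. In chief-like cells it stood at 183.5, 259.4 and 224.5 CPM in corpus 2 to 4 and at 94.8, 129.8 and 144.9 CPM in pylorus 1 to 3. The labels did not overlap, as was so for 3.67% of genes in that direction (-0.78 ± 0.23, SE, log2, unadjusted p = 0.00683, adjusted p = 0.9998, limma). In neck-like cells it stood at 239.5, 390, 295.99 and 238.7 CPM in corpus 1 to 4 and at 151.8, 212.7 and 229.8 CPM in pylorus 1 to 3, which overlapped once scaled (-0.55 ± 0.25, SE, adjusted p = 0.9995, limma).

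In endocrine-like cells Txnip stood at 420, 307.8, 205.3 and 211.99 CPM in corpus 1 to 4 and at 108.3, 218.01 and 206.5 CPM in pylorus 1 to 3. These overlap, but not after scaling, as was so for 1.9% of genes in that direction (-0.73 ± 0.34, SE, log2, adjusted p = 0.9825, limma). In proliferating-like cells the plates overlapped, with 312.8, 258.6 and 284.2 CPM in corpus 1, 3 and 4 and 125.7, 274.2 and 340.01 CPM in pylorus 1 to 3.

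Over all cells outside the pit-like class Txnip stood at 282.95, 295.3, 332.8 and 302.9 CPM in corpus 1 to 4 and at 129.7, 213.1 and 229.8 CPM in pylorus 1 to 3. The labels did not overlap, as was so for 1.47% of genes in that direction (-0.66 ± 0.26, SE, log2, unadjusted p = 0.0317, adjusted p = 0.9999, limma). With only corpus 3 and 4 and pylorus 2 and 3, Txnip was called both there (-0.64, adjusted p = 0.0104, limma) and in chief-like cells (-0.77, adjusted p = 0.00847, limma). The chief-like cells of these plates fell mostly into different clusters, those of corpus 3 and 4 into cluster 18 (33 and 23 cells) and those of pylorus 2 and 3 into cluster 16 (57 and 63 cells), so that label and cluster cannot be told apart there.

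**Figure D4:**
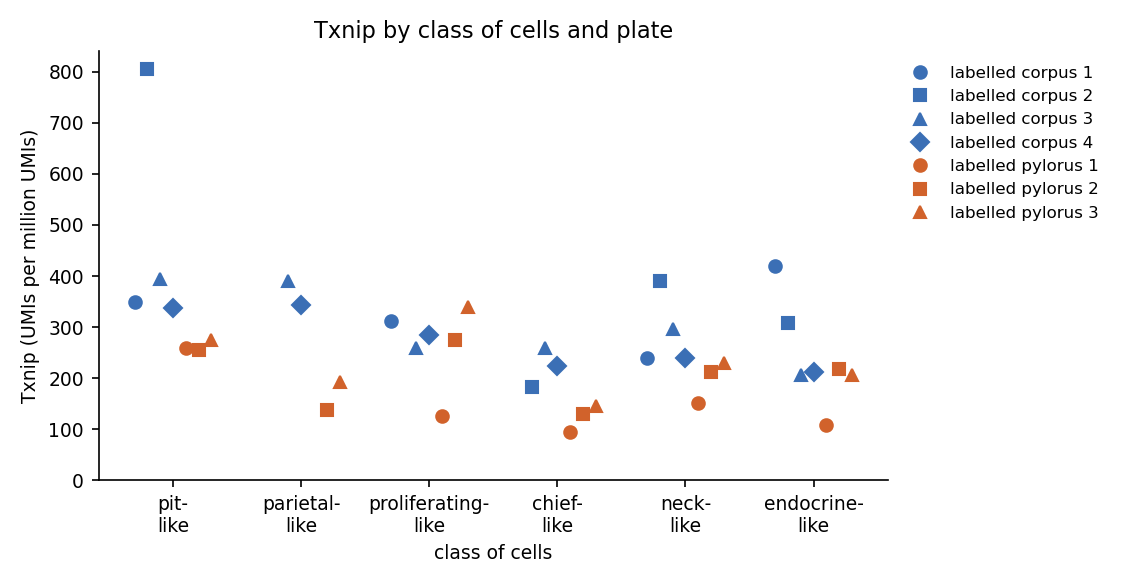
Txnip level (UMIs per 1000000 UMIs, y axis) in pit-, parietal-, proliferating-, chief-, neck- and endocrine-like cells (x axis), 1 point per plate with at least 10 cells of the class. Other cells are not drawn. The pylorus plates lie below the corpus plates in pit-like, parietal-like, chief-like and neck-like cells (in neck-like cells not once scaled by TMM) and overlap with them in proliferating-like and endocrine-like cells.

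**Figure D5:**
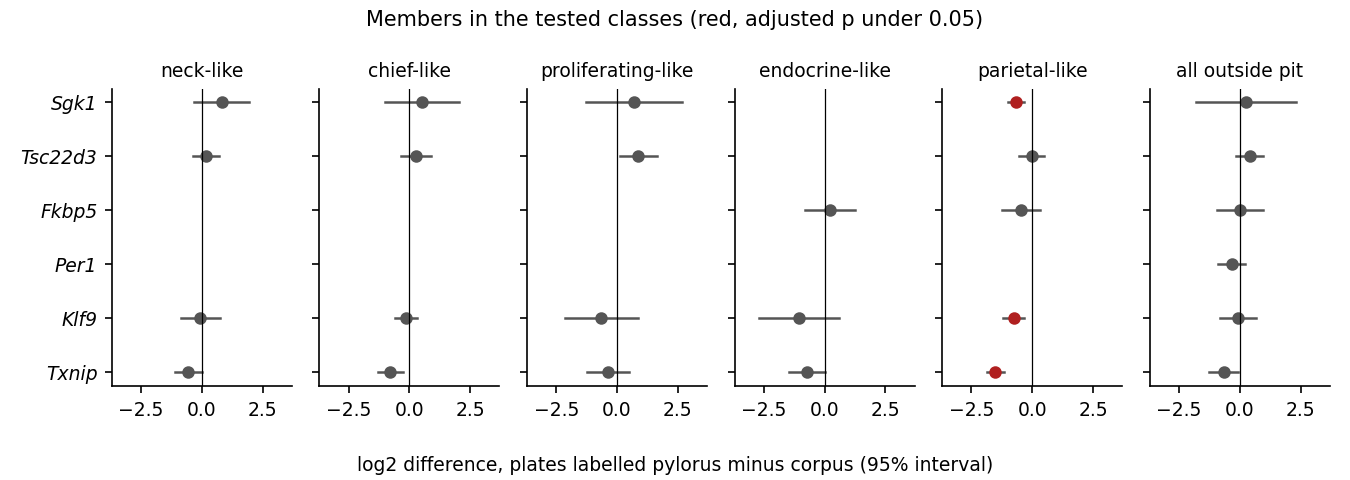
Log2 difference, pylorus minus corpus plates (x axis, point), with its 95% interval (line) for each member tested (y axis) in 5 classes and over all cells outside the pit-like class; red marks an adjusted p under 0.05 (limma). Only Sgk1, Klf9 and Txnip in parietal-like cells are red, at -0.67, -0.76 and -1.52 with TMM scaling.

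The remaining members had levels of their own in each class. Fkbp5 mostly stood highest in endocrine-like cells. These cells had 17.5, 26.5, 25.7 and 47.1 CPM in corpus 1 to 4, and 39.4, 31.7 and 29.7 CPM in pylorus 1 to 3. Parietal-like cells exceeded that in pylorus 3 alone, with 38.3 CPM. The endocrine-like value of corpus 1 (57084 UMIs in all) lies under the floor of 3 counts, so no order is read in that plate. That of pylorus 1 (101548 UMIs in all) also rests on few counts. In chief-like cells Fkbp5 was low, at 0.859 to 1.57 CPM in corpus and 1.58 to 8.74 CPM in pylorus plates. Per1 in endocrine-like cells rested on 4, 15, 1 and 2 UMIs in corpus 1 to 4 and on 0, 2 and 3 UMIs in pylorus 1 to 3. Corpus 1 and 2 alone exceeded the floor of 3 counts (70.1 and 10.4 CPM), so no order of classes is read.

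Klf9 stood at 75.8 to 107.6 CPM in chief-like, 42.4 to 98.3 CPM in neck-like and 9.85 to 122.6 CPM in endocrine-like cells, each with overlapping labels. Tsc22d3 stood between 9.85 and 52.6 CPM in these 3 classes. The lows of 9.85 CPM of Klf9 and Tsc22d3 are those of endocrine-like cells in pylorus 1, under the floor of 3 counts. In proliferating-like cells it stood at 25.6, 33.5 and 33 CPM in corpus 1, 3 and 4 and at 104.8, 42.4 and 48.8 CPM in pylorus 1 to 3. The labels did not overlap, as was so for 4% of genes in that direction (0.88 ± 0.33, SE, log2, adjusted p = 0.9997, limma).

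The receptor gene Nr3c1 was measured in every class. In pit-like cells it stood at 60.4, 99.6, 70.3 and 61.5 CPM in corpus 1 to 4 and at 74.4, 73.9 and 62.5 CPM in pylorus 1 to 3, within the corpus range. It stood highest in endocrine-like cells in all 7 plates, at 110.4 to 150.8 CPM. Nr3c2, the mineralocorticoid receptor gene, whose product binds the same hormones, had 0 to 4.27 CPM in pit-like cells. Of 12 genes of receptor and steroid handling, 9 were tested in each class and 0 were called (7.91% of all genes in parietal-like cells were). The most abundant of them, the chaperone genes Hsp90ab1 and Hsp90aa1, stood in pit-like cells at 895 to 1692 and 365.6 to 800 CPM in corpus and at 907 to 1037 and 683 to 807 CPM in pylorus plates.

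A wider list of 35 genes that glucocorticoids are known to induce showed no common direction in pit-like cells. There 15 of 24 tested were fitted higher and 9 lower in pylorus plates (median log2 difference 0.0801, all genes 0.0449). In parietal-like cells 5 were higher and 14 lower (median -0.512, all genes -0.0313), and 4 of these 19 were called, all lower (4.39% of all genes were called as lower). Glul, the glutamine synthetase gene, fell from 861 and 936 CPM to 420 and 372.4 CPM (-1.54 ± 0.15, SE, adjusted p = 3.06e-05, limma). The others called were Pdk4, a brake on pyruvate oxidation (-1.78 ± 0.36), Bcl6, a transcriptional repressor (-1.88 ± 0.51), and Nfkbia, an inhibitor of NF-kB (-1.09 ± 0.28). With limma, Nfkbia was not called with all UMIs (adjusted p = 0.0737) or without corpus 4 (0.498), Bcl6 not with a pseudocount of 0.5 (0.0546), and Pdk4 not without corpus 3 (0.118) or corpus 4 (0.221).

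Of 19 genes of the Sgk family and of its substrates or targets, 13 were tested in parietal-like cells and 1 was called, a share near the 7.91% of all genes called in that fit. It was Scnn1a, the alpha subunit of the epithelial sodium channel that Sgk1 is known to regulate, which fell from 106.3 and 121.4 CPM in corpus to 18.7 and 43.1 CPM in pylorus plates (-2.26 ± 0.28, SE, log2, adjusted p = 0.000245, limma). In pit-like cells Scnn1a overlapped between the labels, at 62.6 to 130.3 CPM and 69.8 to 92.7 CPM. Of 10 genes around Txnip and glucose sensing, 9 were tested in parietal-like cells and 2 were called (7.91% of all genes were). Txn1, the thioredoxin gene, rose from 172.4 and 182.4 CPM to 431 and 485 CPM (0.999 ± 0.146, SE, adjusted p = 0.00083, limma), and Ldha, a lactate dehydrogenase gene, from 62.5 and 53.2 CPM to 158.1 and 263.4 CPM (1.44 ± 0.21, SE, adjusted p = 0.000761, limma). In pit-like cells both genes overlapped between the labels.

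Of 18 clock genes, 9 were tested in pit-like cells, 5 higher and 4 lower in pylorus plates (median log2 difference 0.00934), and 6 in parietal-like cells, where 0 were called. Arntl and Clock, which encode the activating pair of the clock, stood in pit-like cells at 19.1 to 32.7 and 22.2 to 32 CPM in corpus and at 22.5 to 27.6 and 16.5 to 24.2 CPM in pylorus plates, which overlap. Of 15 dissociation genes tested in parietal-like cells, 12 were fitted higher and 3 were called with TMM (7.91% of all genes were). Hspa8, a heat-shock chaperone gene, rose (0.88 ± 0.14, SE, adjusted p = 0.00159, limma), and the transcription factor genes Jun (-0.56 ± 0.16) and Jund (-0.62 ± 0.17) were lower, but not called with all UMIs (adjusted p = 0.454 and 0.359, limma). The part of these genes in the parietal-like values of Sgk1, Klf9 and Txnip was not tested.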

How the data were processed

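Single living gland cells were sorted and sequenced as the labels' protocols describe. The deposited tables hold raw UMI counts (a value of another kind than the normalised units) for each gene in each well, as the file headers and values show, with spike-in rows kept apart here. Their layout did not pass the unit check as counts, so limma replaced the count model named first in the design. The build is mm9, per the submitters' processing notes. Aligner and counter: not given in the sources used here.

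Wells with at least 1000 UMIs besides spike-ins were kept. Doublets were not searched for, because wells were filled by a cell sorter. All plates carry 1 set of well barcodes, so shared barcodes mark only the well position. Log-scaled cells (10000 UMIs) of all plates were clustered in scanpy 1.11.5 and igraph 0.11.9 (2000 variable genes, 30 components, 15 neighbours, Leiden resolution 1.0). Clusters were named by the marker list with the highest mean log2 fold among those with at least 3 detected markers, and may differ from the study's own types.

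Counts were summed per plate and class (10 or more cells). Fits took log2(CPM + 2), after TMM scaling (trimmed means of M values), for genes that reached the CPM of 10 counts in a median sum in enough plates to fill the smaller group, and 15 counts in all. They were made in limma 3.58.1 (R 4.3.3, trended eBayes, Benjamini-Hochberg over all genes tested) and checked on simulated counts. This scale understates differences of low genes. Floors and shares cover counting error only.

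The members, lists and tests were chosen with earlier results of these data known. The text names the 6 members, up to 4 called genes of each list by size (otherwise its 2 most abundant in pit-like cells), and the 6 genes most like Sgk1 by each measure. Promoters come from RefSeq on GRCm38.p6, a build other than the files', and served for sequence only, with chromosome 18 left out. The labels do not tie plates to animals, so p-values measure the spread between plates, which may be technical. In parietal-like cells limma took that spread mostly from all genes together. There 13.23 prior degrees of freedom stood against 2 from the plates themselves, so the p-values of single genes lean on that pooled spread.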

Additional observations from a re-analysis of the deposited data

Results flagged for a closer look

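In pit-like cells Txnip stood at 805 CPM (566 UMIs) in corpus 2, far from the other corpus plates (336.4 to 394 CPM), and the gap took 0.878 of the whole range. A similar gap set corpus 1 apart in 3 further cases, each from 2 to 4 UMIs: Per1 at 70.1 CPM and Tsc22d3 at 52.6 CPM in endocrine-like cells, and Per1 at 6.36 CPM in pit-like cells. These are 4 of 24 groups of 4 plates looked at, and chance sets about 1 in 20 groups apart. Corpus 2, the plate of the Txnip gap, alone had Ddx3y without Xist. Its pit-like cells were lowest in pit markers, at 9.67% of UMIs against 15.7 to 17% in the other corpus plates. The part of either in the Txnip value was not tested.

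The Sgk1 level (CPM) of all pylorus plates lay above that of all corpus plates in pit-like cells and below it in parietal-like cells (-0.671 on the log2 scale with TMM). No direction is read from the parietal-like values, since the share of cells with Sgk1 at equal depth ran against the levels, and the call was lost with all UMIs (adjusted p = 0.234, limma) and without corpus 3 (0.127) or corpus 4 (0.201). The difference between the classes was not tested.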

How the results depend on the processing

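In neck-like, proliferating-like and endocrine-like cells 0 members were called under each alternative run, though with cells thinned to 1000 UMIs 1 member was tested in neck-like cells and 0 in proliferating-like, endocrine-like and chief-like cells. Txnip made 1 member called in chief-like cells, and 1 over all cells outside the pit-like class, when only corpus 3 and 4 and pylorus 2 and 3 were used, where genes called went from 0 to 0.701% and from 0.017 to 3.19% (neck-like 0.0369 to 0.882%, proliferating-like 0 to 0.184%, endocrine-like 0 to 0.296%, with 0 members). With 1 plate left out, 0 to 4 genes were called in each of these fits. In parietal-like cells 3 members were called, but 1 with counts scaled to all UMIs (an alternative chosen after seeing the data, 17.7% of genes called in place of 7.91%), 0 with cells thinned to 1000 UMIs (1 member tested), and 1 to 4 with 1 plate left out, where a lone plate is taken to vary like the others (2.56 to 16.6% of genes called). Sgk1 over cells outside the pit-like class was -0.451 (log2) with only corpus 3 and 4 and pylorus 2 and 3. It was -0.129 without corpus 1, -0.312 without corpus 2, -0.157 without pylorus 2 and -0.0463 without pylorus 3, up to 0.974 without pylorus 1. The mean correlation of Txnip with Sgk1 was -0.151 in wells with at least 3000 UMIs. Sgk1 in pit-like cells kept its direction in 16 alternatives (2.10 to 2.79) and could not be fitted with cells thinned to 1000 UMIs. That comparison chose Sgk1, so the kept direction is a description and no support for a difference.

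Whether the replicate numbers pair the plates could not be decided. Same-numbered plates deviated from their means with correlations of 0.26, -0.281 and 0.517, the last being the highest of all pairs. The check cannot tell pairing from shared depth, since corpus 1 and pylorus 1 were both shallow. Plates of unlike number reached 0.302 (corpus 2 with pylorus 1), 0.377 and 0.392 (corpus 3 and 4 with pylorus 2) and 0.509 (corpus 4 with pylorus 3). The remaining pairs were negative, from -0.536 (corpus 4 with pylorus 1) to -0.127 (corpus 1 with pylorus 2). With the replicate block, 0 members were called in neck-like (18 genes in place of 3), chief-like (5 in place of 0), proliferating-like (1 in place of 0) and endocrine-like cells and over all cells outside the pit-like class, and Sgk1 in pit-like cells was 2.31. Parietal-like plates share 1 number, so no block could be fitted. Fkbp5 was too sparse to be fitted in 3 classes, Per1 in all 6, and Sgk1 and Tsc22d3 in endocrine-like cells.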
